A study of Mus musculus with 7 samples.

Results

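The receptors for ovarian and adrenal steroids were examined in mouse kisspeptin cells from the AVPV, the anteroventral periventricular nucleus, which lies in the preoptic area of the brain. The 9 genes, chosen by name, were Esr1, Esr2 and Gper1 for estrogens, Pgr, Pgrmc1, Pgrmc2 and Paqr7 for progesterone, and Nr3c1 and Nr3c2 for corticosteroids. Each matched 1 of the 55384 listed genes, and all 9 passed the filter on low counts. The samples were 7 libraries of ribosome-bound RNA from female mice on a C57BL/6 background with the genotype Kiss1Cre+/Rpl22HA+/+, in which Kiss1-driven Cre switches on an HA tag on the ribosomal protein Rpl22. In 4 libraries the mice were GDX without E2 (ovariectomized, no estradiol), and in 3 they were E2-treated. Each library pooled AVPV micropunches of 4 brains. Age, estradiol dose and duration were not given in the sources used here, nor whether the E2 mice were also ovariectomized. The tag marks every cell in which Cre was ever active, and no library from mice without Cre was analysed here.

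Nuclear steroid receptors are ligand-activated transcription factors. Estrogen receptor alpha in AVPV kisspeptin neurons is needed for the positive feedback by which estradiol triggers the preovulatory surge of luteinising hormone, and the progesterone receptor that estradiol induces in these cells contributes to that surge. Membrane receptors such as GPER1 and the PAQR proteins act through rapid signalling, and the PGRMC proteins are heme-binding membrane proteins with several roles besides progesterone binding. The comparison asks how estradiol changes the RNA that these cells translate.

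Estrogen receptors read a different DNA element from the receptors for progesterone and corticosteroids, largely because of a short stretch in the first zinc finger, the P box. Its coding sequence is shown with 21 bases on each side, from the GENCODE vM21 transcript with the longest coding sequence, because it lies in the most conserved domain of these receptors, where reads are told apart by the bases that differ. Capitals mark the 18 bases of the P box, 5′ to 3′ on the coding strand.

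Esr1 P box, chr10:4746747-4746806, plus strand, exon 4 of 10: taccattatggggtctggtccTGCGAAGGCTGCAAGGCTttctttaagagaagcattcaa
Esr2 P box, chr12:76165450-76165509, minus strand, exon 3 of 10: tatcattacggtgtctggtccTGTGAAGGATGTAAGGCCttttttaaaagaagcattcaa
Pgr P box, chr9:8903687-8903746, plus strand, exon 2 of 8: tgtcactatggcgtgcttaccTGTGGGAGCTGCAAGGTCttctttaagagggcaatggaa
Nr3c2 P box, chr8:77085606-77085665, plus strand, exon 2 of 8: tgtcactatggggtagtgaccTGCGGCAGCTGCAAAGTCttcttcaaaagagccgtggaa

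Esr1 and Esr2 were identical at 51 of these 60 bases, and Pgr and Nr3c2 at 48. Esr1 and Pgr, of different classes, were identical at 39. Over whole transcripts, the longest run shared by any pair of the 5 nuclear receptors was 24 bases, between Pgr and Nr3c2, and that of Pgrmc1 and Pgrmc2 was 18 bases. Deposited counts of the 9 genes were whole numbers except for Nr3c2, which had fractional counts in all but 1 library. Nr3c2 shares 247 exonic bases with Gm10649 on the opposite strand, which was at 0.316 (GDX) and 0.611 CPM (E2). Unstranded libraries cannot separate the pair. No other receptor shared exonic bases with another annotated gene.

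Libraries held 29207544 to 36213127 counts. Levels are given as CPM, the count divided by the library's TMM-scaled total and set to a common total, with the SD between libraries. The quasi-likelihood test of edgeR set E2 against GDX over 18282 genes, with Benjamini-Hochberg adjustment over all of them and a threshold of 0.05. P-values measure spread between pools, not single animals. All 8 fixed markers of AVPV kisspeptin neurons were detected (at least 1 CPM in at least 3 libraries). Their sum was 3092 to 3514 CPM in GDX and 4682 to 5147 CPM in E2. The groups did not overlap for 7 of the 8, and for 16.5% of all tested genes. Kiss1 itself was 44.5 to 113.5 CPM in GDX and 379 to 485 CPM in E2, with the division of counts between it and the overlapping Gm28040 uncertain. Th lay at 235 to 331 CPM in GDX and 534 to 570 CPM in E2. RNA of other cells was present too. All 10 astrocyte markers were detected, and their summed level was 1293 to 3400 CPM in GDX and 985 to 1143 CPM in E2, with the highest sums in GDX replicates 1 (2841) and 4 (3400). All 10 endothelial markers summed to 303 to 715 CPM in GDX and 177 to 291 CPM in E2. The sums of oligodendrocyte, oligodendrocyte precursor and microglial markers overlapped between the groups, at 2675 to 5940, 170 to 267 and 132 to 167 CPM. So did the sums of pan-neuronal markers (5068 to 5928 CPM) and of GnRH, vasopressin and oxytocin neuron markers (58.4 to 168.8 CPM). Ependymal sums overlapped only narrowly, at 78.0 to 139.7 CPM in GDX and 54.6 to 82.1 CPM in E2. All 6 markers of arcuate kisspeptin neurons and their neighbours were detected, with sums of 176 to 254 CPM in GDX and 134 to 171 CPM in E2, and Pdyn, which encodes dynorphin, held most of that sum at 138 to 203 and 90.1 to 118.5 CPM. Agrp, a gene of neighbouring feeding-related neurons and the other marker of that list whose groups did not overlap, was higher in E2, at 0.19 to 0.50 CPM in GDX against 2.84 to 3.33 in E2. It shares 114 exonic bases with Ctcf on the opposite strand, which leaves its level uncertain. The ranges of Tac2, Tacr3, Pomc and Npy overlapped. In bulk samples, fewer cells of a type and less RNA per cell cannot be told apart.

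Of the 9 receptor genes, Pgr rose and Nr3c1 fell in E2, and 7 did not pass. Across all tested genes 3.88% passed, 2.55% higher and 1.33% lower in E2. The median log2 fold change, E2 over GDX, was −0.21 for the 9 genes and 0.00 for all genes tested. Groups did not overlap for Pgr, which was higher in E2, or for Gper1, Pgrmc1, Paqr7 and Nr3c1, which were lower, where 16.5% of all tested genes had groups that did not overlap and 8.06% were lower in E2 without overlap. By other tools run on the same counts, DESeq2 passed 7.66% of all genes and limma-voom 5.92%.

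**Figure D1:**
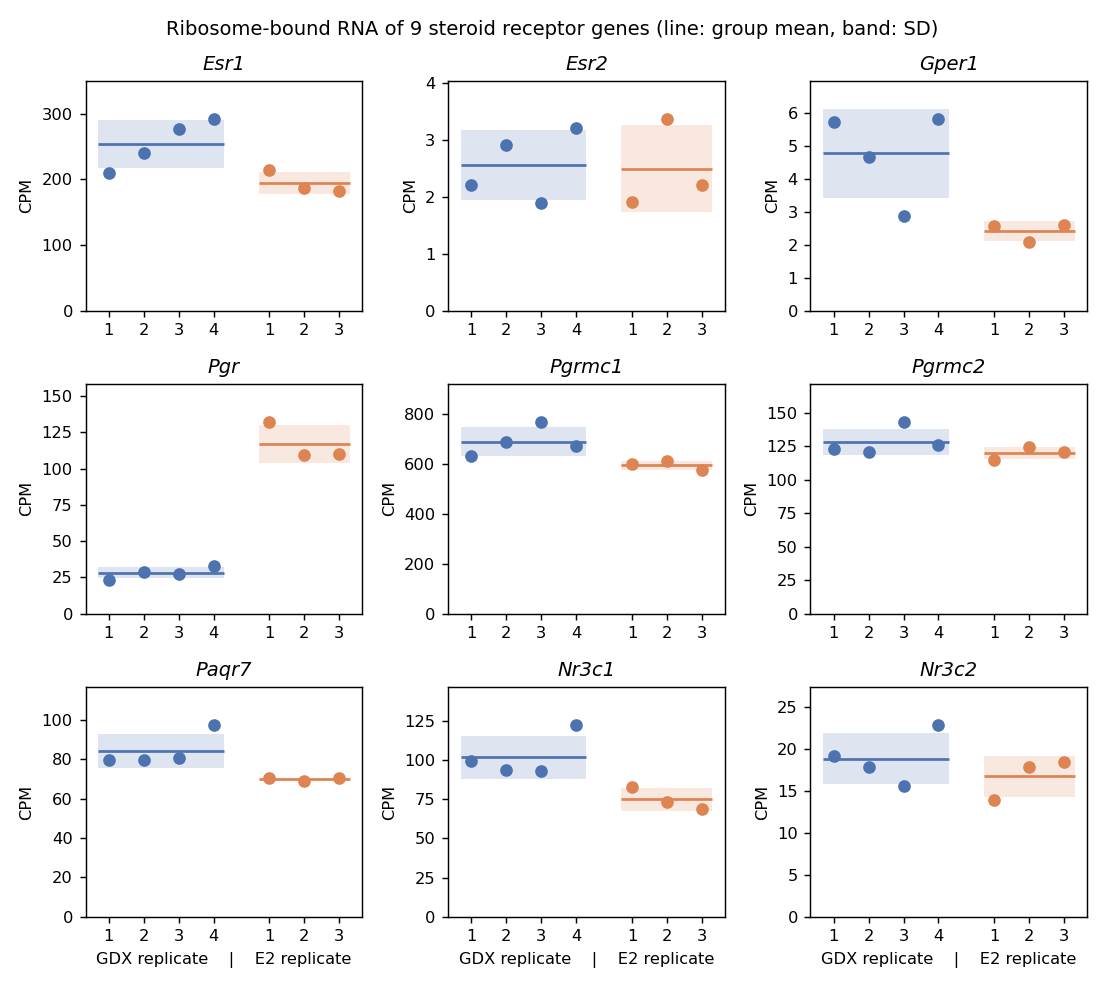
CPM of each receptor gene (vertical axes, starting at 0) in the 4 GDX libraries (blue) and 3 E2 libraries (orange), with the group mean as a line and the SD as a band. Pgr rises from 23.5 to 33.1 CPM in GDX to 109 to 132 CPM in E2, and the other genes differ far less.

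**Figure D2:**
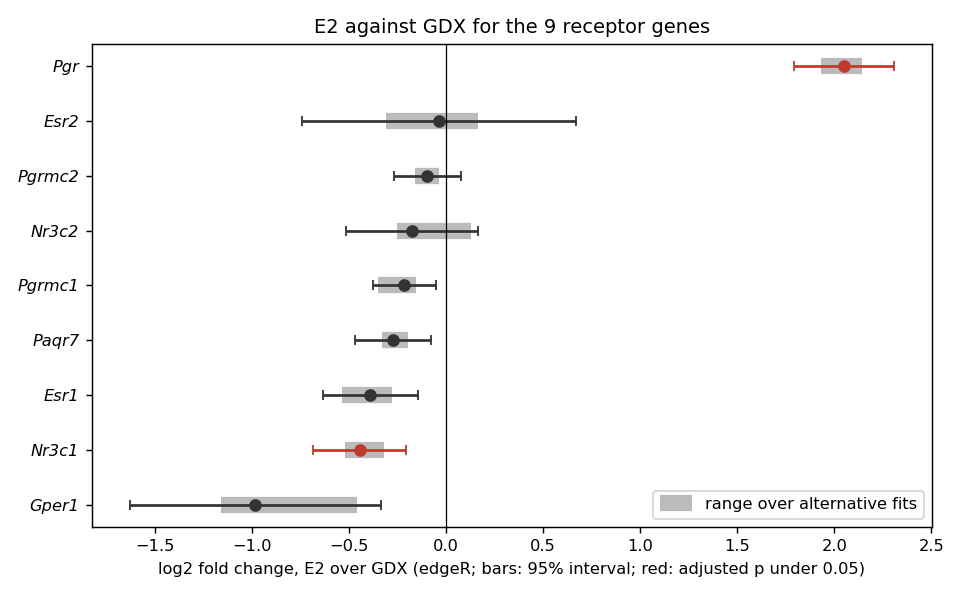
Log2 fold change, E2 over GDX, of each receptor gene (points) with its 95% interval (thin bars) and the range over the alternative fits (grey). Red marks the genes with an adjusted p under 0.05 in edgeR, Pgr and Nr3c1.

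Among the estrogen receptors, Esr1 (ENSMUSG00000019768, chromosome 10, 4611593 to 5005614, GRCm38), which encodes estrogen receptor alpha, was by far the most abundant. Its level was 210, 240.5, 276 and 292 CPM in GDX replicates 1 to 4 and 214, 186 and 183 CPM in E2 replicates 1 to 3. The groups overlapped only through GDX replicate 1, which lay below E2 replicate 1. The log2 fold change of −0.39 ± 0.11 (SE) had a 95% interval of −0.63 to −0.14 and did not pass in edgeR (adjusted p = 0.0901). It passed without GDX replicate 1 (−0.47, adjusted p = 0.0279), and over all alternatives its adjusted p ranged from 0.000313 to 0.27. With a score of non-neuronal markers in the edgeR model, the log2 fold change of Esr1 was −0.54 (adjusted p = 0.14).

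Esr2 (ENSMUSG00000021055, chromosome 12, 76120419 to 76177259), which encodes estrogen receptor beta, was low in both groups. It had 81, 87, 69 and 115 counts in GDX and 62, 102 and 67 counts in E2, or 1.90 to 3.21 and 1.91 to 3.36 CPM, where 3 counts correspond to 0.0818 to 0.101 CPM. The groups overlapped throughout. The log2 fold change of −0.04 had a 95% interval of −0.74 to 0.67, so changes in either direction within those bounds cannot be set aside, and its sign turned under several alternatives.

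Gper1 (ENSMUSG00000053647, chromosome 5, 139423151 to 139427800), which encodes a membrane G protein-coupled receptor that binds estradiol, was also low. It had 5.73, 4.66, 2.88 and 5.81 CPM in GDX replicates 1 to 4 and 2.56, 2.08 and 2.61 CPM in E2. Each E2 library lay below every GDX library, though GDX replicate 3 was close to them. The mean was 1.98-fold higher in GDX, with a log2 fold change of −0.98 ± 0.29 (SE) and a 95% interval of −1.63 to −0.34 that did not pass in edgeR (adjusted p = 0.103). DESeq2 passed it (adjusted p = 0.0263), as did edgeR without GDX replicate 3 (−1.16, adjusted p = 0.0284). The highest Gper1 levels were in GDX replicates 1 and 4, which also had the highest astrocyte and endothelial sums. Without both libraries the log2 fold change was −0.65 (edgeR adjusted p = 0.46), a setting chosen after the data were seen, and with a score of non-neuronal markers in the edgeR model it was −0.46 (adjusted p = 0.834). The part of these cells in the difference was not tested.

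Pgr (ENSMUSG00000031870, chromosome 9, 8899833 to 8968611), which encodes the nuclear progesterone receptor and is a classic estrogen target, stood apart from the other 8 genes. It had 23.5, 28.8, 27.7 and 33.1 CPM in GDX replicates 1 to 4 and 132, 109 and 110 CPM in E2. The groups were far apart, with the lowest E2 library above 3 times the highest GDX library. Of 18282 tested genes, 15 had a smaller adjusted p. The edgeR log2 fold change was 2.05 ± 0.12 (SE), with a 95% interval of 1.79 to 2.31, and the call held in all 18 alternatives, where the value ranged from 1.93 to 2.14. Within GDX, Pgr was lowest in replicate 1 and highest in replicate 4, the libraries with the highest astrocyte sums. The part of other cells in the difference between E2 and GDX was not tested.

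The RefSeq promoters of the genes with the largest positive and negative log2 fold change are shown from 250 bases before to 50 bases after the start site (build GRCm38.p6, 5′ to 3′ on the gene's strand). Capitals mark matches to the GC box GGGCGG and the TATA box TATAAA on either strand.

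Pgr promoter, chr9:8899583-8899882, plus strand: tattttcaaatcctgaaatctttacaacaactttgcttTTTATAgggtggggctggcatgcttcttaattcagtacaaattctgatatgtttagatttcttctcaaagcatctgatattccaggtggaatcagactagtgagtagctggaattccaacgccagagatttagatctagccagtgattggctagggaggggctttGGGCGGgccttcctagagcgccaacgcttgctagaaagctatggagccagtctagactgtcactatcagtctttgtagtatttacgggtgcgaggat
Gper1 promoter, chr5:139422929-139423228, plus strand: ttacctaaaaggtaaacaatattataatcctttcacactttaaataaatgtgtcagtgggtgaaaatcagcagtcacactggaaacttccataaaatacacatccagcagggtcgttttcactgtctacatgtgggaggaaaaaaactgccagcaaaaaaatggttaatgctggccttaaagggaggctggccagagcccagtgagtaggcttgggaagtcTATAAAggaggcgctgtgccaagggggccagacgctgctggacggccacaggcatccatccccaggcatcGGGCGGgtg

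Searches on both strands covered 10 promoters of 8 receptors, and Nr3c1 was not searched. The estrogen response element core GGTCA was found in 4 of the 10 and in 40.5% of 32851 mouse promoters of the same length. It was in neither promoter shown, and the full estrogen response element, which is the core, any 3 bases and the core's reverse complement, was in none of the 10 and in 0.07% of all. The AP-1 motif TGANTCA was in none of the 10 and in 7.81% of all, and the core AGAACA of glucocorticoid and progesterone elements was in 1 of the 10, that of Pgrmc1, and in 19.0% of all. The GC box was in 6 of the 10 and in 35.7% of all promoters, and the TATA box in 2 of the 10 and in 13.6%. In Pgr the GC box began 47 bases before the start site and TTTATA, the TATA box on the other strand, 212 bases before it. In Gper1 the TATA box began 29 bases before the start site and the GC box 41 bases after it. These matches describe the letters of the windows only.

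The membrane progesterone receptors were abundant and moved little. Pgrmc1 (ENSMUSG00000006373, chromosome X, 36598206 to 36606079) had 631, 688, 766 and 673 CPM in GDX replicates 1 to 4 and 599, 611 and 574 CPM in E2. Every E2 library lay below every GDX library. The difference was small, with a log2 fold change of −0.21 ± 0.07 (SE), a 95% interval of −0.38 to −0.05 and an adjusted p of 0.163 in edgeR. Its adjusted p was 0.0442 without GDX replicates 1 and 4, the libraries with the highest astrocyte sums, and it passed in no other alternative. With the non-neuronal covariate the log2 fold change of Pgrmc1 was −0.35 (edgeR adjusted p = 0.0958).

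Paqr7 (ENSMUSG00000037348, chromosome 4, 134496697 to 134510235), which encodes membrane progesterone receptor alpha, had 79.5, 79.6, 80.6 and 97.1 CPM in GDX replicates 1 to 4 and 70.2, 68.9 and 70.4 CPM in E2. The groups did not overlap, and the E2 libraries lay within a narrow band (69.8 ± 0.84 CPM, SD, n = 3). The log2 fold change of −0.27 ± 0.09 (SE) did not pass in edgeR (adjusted p = 0.138) or in any alternative. Pgrmc2 (ENSMUSG00000049940, chromosome 3, 41066326 to 41083046) overlapped between the groups, at 121 to 143 CPM in GDX and 115 to 124 CPM in E2. Its log2 fold change of −0.10 had a 95% interval of −0.27 to 0.08 (edgeR adjusted p = 0.612).

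Of the corticosteroid receptors, Nr3c1 (ENSMUSG00000024431, chromosome 18, 39410545 to 39519421), which encodes the glucocorticoid receptor, had 99.4, 93.5, 92.9 and 122 CPM in GDX replicates 1 to 4 and 83.0, 73.0 and 68.9 CPM in E2. All 3 E2 libraries lay below the GDX libraries, and GDX replicate 4 was the highest. The mean was 1.36-fold higher in GDX. The edgeR log2 fold change of −0.44 ± 0.11 (SE), with a 95% interval of −0.68 to −0.20, passed narrowly (adjusted p = 0.0473). It did not stand when GDX replicate 1 (adjusted p = 0.103) or 2 (0.0587) was left out, nor E2 replicate 1 (0.0658), 2 (0.166) or 3 (0.196), nor without the robust option of edgeR (0.0621), with the replicate number as a block (0.0620) or with the non-neuronal covariate (0.513). Calls over all genes also fell in these fits, from 467 higher and 243 lower to 217 and 94 with the covariate. They were 343 and 154 without GDX replicate 1, and 380 and 206 without GDX replicate 2. Without E2 replicate 1, 2 or 3 they were 268 and 96, 311 and 107, and 323 and 135. The 2 GDX libraries with the highest astrocyte sums also had the highest Nr3c1. Without both, the log2 fold change was −0.32 (edgeR adjusted p = 0.0934), and with the covariate it was −0.35. The part of other cells in the difference was not tested.

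**Figure D3:**
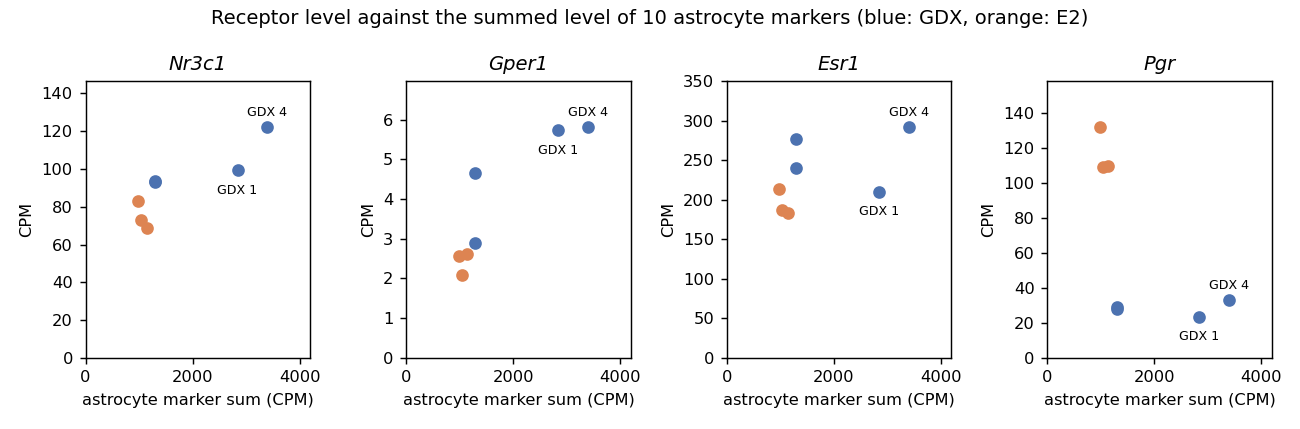
CPM of Nr3c1, Gper1, Esr1 and Pgr (vertical axes, starting at 0) against the summed CPM of 10 astrocyte markers in each library, GDX in blue and E2 in orange. GDX replicates 1 and 4, at sums of 2841 and 3400 CPM, have the highest Nr3c1 and Gper1 levels. Within GDX, Pgr is lowest in replicate 1 (23.5 CPM) and highest in replicate 4 (33.1 CPM).

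Nr3c2 (ENSMUSG00000031618, chromosome 8, 76899442 to 77245012), which encodes the mineralocorticoid receptor, had 19.1, 17.9, 15.6 and 22.8 CPM in GDX replicates 1 to 4 and 13.8, 17.8 and 18.4 CPM in E2. The groups overlapped. Its log2 fold change of −0.17 had a 95% interval of −0.52 to 0.17 (edgeR adjusted p = 0.654), and its sign turned with the non-neuronal covariate.

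Levels of different genes were compared as CPM per kb of the union of annotated exons. In GDX the order was Pgrmc1 (371 ± 30.4 CPM per kb, SD, n = 4), Pgrmc2 (39.6 ± 3.07), Paqr7 (19.8 ± 2.02), Esr1 (18.6 ± 2.69), Nr3c1 (13.3 ± 1.79), Pgr (3.31 ± 0.46), Nr3c2 (2.91 ± 0.46), Gper1 (1.88 ± 0.54) and Esr2 (0.76 ± 0.18). Neighbours whose ranges overlapped were Paqr7 and Esr1, Esr1 and Nr3c1, and Pgr and Nr3c2. Pgrmc1 lay above 99.6% of 15515 expressed genes, Esr1 above 81.5%, Pgr above 38.4% and Esr2 above 11.3%.

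In E2, Pgr moved past Nr3c1 to the fifth place at 13.7 ± 1.51 CPM per kb (SD, n = 3), next to Esr1 at 14.2 ± 1.23, and their ranges overlapped. It then lay above 74.9% of expressed genes. Esr1 was 5.64 ± 0.43 times the level of Pgr per kb in GDX (SD, n = 4) and 1.04 ± 0.03 times in E2 (SD, n = 3). The ranges of Gper1 and Esr2 overlapped in E2. Esr1 was 25.5 ± 7.07 times as abundant as Esr2 per kb in GDX, a value that rests on the length used, since it was 54.9 with the longest transcript and 98.0 with the longest coding sequence. The other estrogen receptor, Gper1, lay between them, with Esr1 at 10.9 ± 4.78 times its level in GDX. With either alternative length Esr1 stood above Paqr7 in both groups, and in E2 Paqr7 then lay between Esr1 and Pgr, so the near equality of Esr1 and Pgr in E2 holds for the exon union only.

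**Figure D4:**
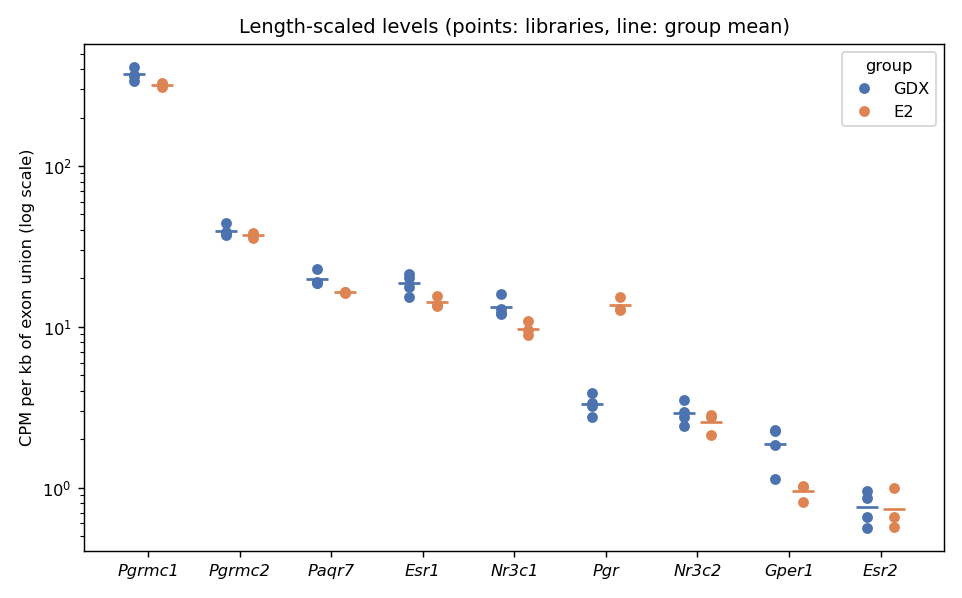
CPM per kb of exon union (log axis) of the 9 receptor genes in each library, with group means as lines, in the order of the GDX means. Pgrmc1 is the highest in both groups, and Pgr moves from 3.31 CPM per kb in GDX to 13.7 in E2.

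Ratios of receptors within a library do not depend on how libraries are scaled. The log2 ratio of Pgr to Esr1 counts was −3.16, −3.06, −3.32 and −3.14 in GDX replicates 1 to 4 and −0.70, −0.77 and −0.74 in E2. The groups were separate and narrow, and differed by 2.43. A two-sided exact permutation test of the difference in means gave p = 0.0286, the smallest that 4 against 3 libraries allow, and an adjusted p of 0.0571 over the 4 ratios examined. The ratio of Pgrmc1 to Pgr fell by 2.26, also without overlap, with the same exact p of 0.0286 and adjusted p of 0.0571. Neither therefore passed after adjustment.

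The ratio of Esr2 to Esr1 overlapped between the groups, with a difference of 0.34 on the log2 scale (exact permutation p = 0.429, adjusted p = 0.429). The ratio of Nr3c1 to Nr3c2 was 2.44 ± 0.09 (SD, n = 4) in GDX. In E2 it was 2.58, 2.03 and 1.90. The difference of −0.27 did not pass (exact permutation p = 0.229, adjusted p = 0.305), and E2 replicate 1 lay above all GDX libraries.

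**Figure D5:**
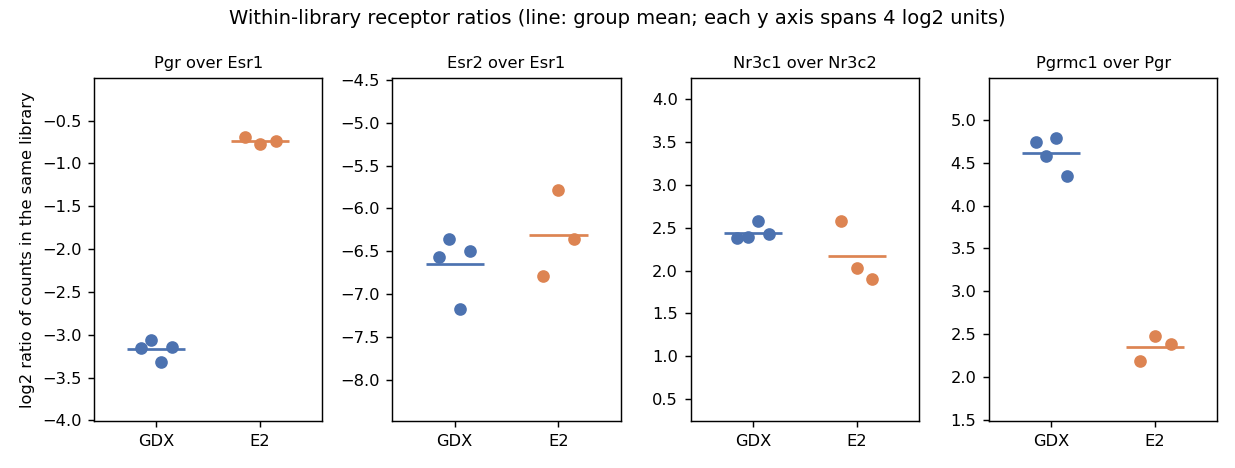
Log2 ratio of the counts of 2 receptor genes in the same library, GDX in blue and E2 in orange, with group means as lines and 4 log2 units on each vertical axis. Pgr over Esr1 and Pgrmc1 over Pgr are separate between the groups, and the other 2 ratios overlap.

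Genes that act beside these receptors were counted from lists chosen for their known roles. Of 7 relatives of the membrane progesterone receptors and PGRMC proteins, none was called in edgeR, 2 had an unadjusted p under 0.05, as did 16.8% of all tested genes, and DESeq2 called 1 and limma-voom 0. Without GDX replicate 3, edgeR called 2, Paqr8 (adjusted p = 0.0312) and Nenf (0.0314). Over all genes, that fit called 546 higher and 428 lower, against 467 and 243 with all libraries. The gene that DESeq2 called was Paqr8, named here after its values were seen. Paqr8, which encodes membrane progesterone receptor beta, was 72.1 ± 11.7 CPM in GDX (SD, n = 4) and 54.5 ± 3.18 CPM in E2 (SD, n = 3), with an edgeR adjusted p of 0.0993, and its highest levels were in GDX replicates 1 and 4 (78.8 and 85.0 CPM). Serbp1, whose product binds PGRMC1, was 232 and 257 CPM, and Nenf, a secreted relative of the PGRMC proteins, 125 and 151 CPM. None of the 3 estrogen-related receptor genes Esrra, Esrrb and Esrrg was called, at edgeR adjusted p values of 0.552 to 0.839, with 0 at an unadjusted p under 0.05 and 0 called by DESeq2 or limma-voom. Esrra shares 73 exonic bases with Trmt112 on the opposite strand, which leaves its level uncertain.

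Steroid receptors fold and bind hormone with the help of heat shock protein complexes. Of 14 genes of such chaperones, 2 rose, none fell and 12 did not pass, with a median log2 fold change of 0.04. Over all tested genes, 2.55% rose and 1.33% fell in edgeR, and DESeq2 called 7.66% and limma-voom 5.92%. The 2 chaperone calls became 3 with DESeq2, 4 with limma-voom and 0 with the non-neuronal covariate. They became 4 without GDX replicate 4 and 1 when GDX replicate 1, GDX replicate 2 or any single E2 library was left out. Over all genes, 591 rose and 287 fell without GDX replicate 4, against 467 and 243 with all libraries. Calls over all genes fell without GDX replicate 1 or 2 or any E2 library, and with the covariate, as given for Nr3c1. The chaperone genes that rose were the immunophilin genes Fkbp4 and Fkbp5, whose products promote and restrain hormone binding by the glucocorticoid receptor, respectively. Fkbp4 was at 273 ± 34.3 CPM in GDX (SD, n = 4) and 420.0 ± 32.7 in E2 (SD, n = 3), a log2 fold change of 0.62 ± 0.10 (SE, edgeR adjusted p = 0.00285) that lost its call only with the non-neuronal covariate (0.103). Fkbp5 rose from 34.0 ± 3.23 to 46.4 ± 1.96 CPM (edgeR adjusted p = 0.0235), a call lost without GDX replicate 1 (0.077) or 2 (0.054), without E2 replicate 1 (0.121), 2 (0.063) or 3 (0.1) and with the covariate (0.348). Its log2 fold change was 0.45 and lay between 0.39 and 0.51 in all alternatives. Hspa8 and Hsp90ab1, the most abundant of the list, did not pass. Hspa8 was at 3004 CPM in GDX and 3282 in E2, and Hsp90ab1 at 2218 and 2308.

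Coregulators connect a bound receptor to transcription. Of 26 such genes, 2 rose, 1 fell and 23 did not pass, with a median log2 fold change of 0.07. Over all tested genes, 2.55% rose and 1.33% fell. Nrip1, the corepressor RIP140 and itself an estrogen target, rose from 16.6 ± 2.57 CPM in GDX (SD, n = 4) to 52.8 ± 10.5 in E2 (SD, n = 3), with an edgeR adjusted p of 6.04e-05 and a call in all 18 alternatives. The coactivator gene Cited1 rose from 28.6 ± 7.4 to 52.8 ± 0.79 CPM (edgeR adjusted p = 0.0137), a call lost without GDX replicate 1 (0.0511), without E2 replicate 1 (0.0821), 2 (0.0776) or 3 (0.0642) and with the covariate (0.236). Its relative Cited2 fell from 60.2 ± 6.27 to 32.6 ± 2.37 CPM (edgeR adjusted p = 0.000402), in every alternative. The RNA helicase coactivators Ddx5 and Ddx17 did not pass, at log2 fold changes of 0.07 and −0.04.

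Of 22 genes known to respond to glucocorticoids, 2 rose, 1 fell and 19 did not pass, with a median log2 fold change of 0.03. The shares over all tested genes were 2.55% higher and 1.33% lower. Pim3, a kinase gene, rose from 49.7 ± 3.50 to 83.4 ± 6.19 CPM (edgeR adjusted p = 0.000396), and Fkbp5, described above, is the other. Bcl6, a transcriptional repressor gene, fell from 19.99 ± 1.65 to 11.6 ± 1.42 CPM (edgeR adjusted p = 0.00614). The calls of Pim3 and Bcl6 held in all 18 alternatives. The clock gene Per1 and the metallothionein gene Mt1 did not pass, at log2 fold changes of −0.06 and 0.04.

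Of 13 listed enzymes that make, activate or inactivate steroids before they reach a receptor, 10 were tested and 1 was called. Over all tested genes, 3.88% were called in edgeR. Hsd17b12, whose product reduces estrone and elongates fatty acids, rose from 73.4 ± 3.0 to 91.6 ± 2.53 CPM (edgeR adjusted p = 0.0318), and the other 9 did not pass. That call was lost when E2 replicate 1 (0.141), 2 (0.148) or 3 (0.0861) was left out, when GDX replicate 1 (0.0751) or 2 (0.0901) was, with the replicate block (0.108), with the covariate (0.251), without scaling factors (0.0746), and without GDX replicates 1 and 4 together (0.0555). The log2 fold change was 0.32 and stayed between 0.26 and 0.34 in all alternatives, with 0.33 under the covariate. Hsd17b4 and Hsd17b10, further 17-beta-hydroxysteroid dehydrogenase genes, were 55.7 and 19.3 CPM in GDX and 52.0 and 14.8 CPM in E2.

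For 3 receptors, the genes with the most similar levels over the 7 libraries were sought among 12170 tested genes whose mean reached 5 CPM, by Pearson's r of log2 CPM. For Pgr these were Lhfpl3 (r = 0.998), Nell2 (0.997) and Syt6 (0.997), which encodes a synaptotagmin and rose from 60.2 ± 7.68 to 218 ± 8.60 CPM. For Esr1 they were Ak4 (0.987), Ppm1d (0.986) and Sgtb (0.979), and for Nr3c1 they included Acadm (0.987) and Fam196a (0.985). The points share their libraries and depth, and 7 libraries allow high values of r among so many genes. Lhfpl3 shares 567 exonic bases with A930003O13Rik on the opposite strand, which leaves its level uncertain. The other genes named from the lists or by likeness that share exonic bases with a second gene are Hspa8, Ddx5, Ddx17, Bcl6, Serbp1 and Syt6, whose partners lay at no more than 1.09 CPM.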

How the data were processed

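The 7 libraries hold polyadenylated, ribosome-bound RNA without strand information, per the labels' protocols. The authors deposited 1 expected count per gene and library. Trimmomatic 0.38, STAR 2.6.0a, RSEM 1.3.0 and the build mm10 are named in the submitters' processing notes, without roles or order, and the sources used here do not name the annotation. Identifiers were matched to GENCODE vM21 (GRCm38), which covered 55203 of 55384.

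Expected counts were rounded and fitted in R 4.3.3 with edgeR 4.0.16: TMM factors, filterByExpr (minimum count 10, total 15), and the quasi-likelihood test with robust dispersions. Benjamini-Hochberg adjustment ran over all tested genes. Log2 fold changes use a prior count of 0.125, and standard errors and 95% intervals come from the F statistic. Within-library ratios used counts plus 0.5 and a two-sided exact permutation test on the absolute difference of means (scipy 1.17.1). Depth was 29207544 to 36213127 counts, and the floor of 3 counts covers counting error only. Scripts were tested on simulated data.

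The genes, gene lists and tests were chosen with earlier results of these data known. Named genes are the 9 receptors and, from each list, up to 4 called members by size of change and the 2 most abundant that did not pass. Kiss1, Th, Gad2 and up to 2 markers a list whose groups did not overlap could be named. Likeness used the 3 highest r, leaving out predicted genes, and 1 of these genes is not reported here. Paqr8 and Esrrb fall outside this rule and were added after their values were seen. Alternatives included DESeq2 1.42.0 and limma 3.58.1 (voom). Leaving out GDX replicates 1 and 4 together, and doubling the smaller permutation tail, were chosen after the data were seen.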

Additional observations from a re-analysis of the deposited data

Results flagged for a closer look

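Paqr7 in GDX replicate 4, at 97.1 CPM, lay far above the other 3 GDX libraries (79.5 to 80.6 CPM): its gap to the nearest of them was 0.938 of the group's range, above Dixon's 95% critical value for 4 samples. Chance flags about 1 in 20 groups, and 13 groups of GDX values were examined. GDX replicate 4 also had the highest astrocyte marker sum. Its number in the column names of the deposited counts stands apart from those of the other libraries, and what that number marks was not examined. Without it the log2 fold change of Paqr7 was −0.20, with an edgeR adjusted p of 0.203.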

How the results depend on the processing

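Of the 9 receptor genes, 2 passed in edgeR. The count was 4 without a low-count filter and 4 with DESeq2 (Pgr, Nr3c1, Esr1 and Gper1 in both), and 1, Pgr alone, without the robust option, with the non-neuronal covariate and at an adjusted p under 0.01. It was 3 with library sizes alone (with Esr1) and 3 without GDX replicates 1 and 4 together (Pgr, Esr1 and Pgrmc1), and 1 to 3 with 1 library left out. Over all genes, higher and lower calls were 722 and 887 of 33537 without the filter, and 675 and 725 with DESeq2. They were 446 and 232 without the robust option, 217 and 94 with the covariate, and 385 and 352 with library sizes alone. Without GDX replicates 1 and 4 they were 505 and 264, and 360 genes had an adjusted p under 0.01 in the main fit. With 1 library left out, 268 to 591 rose and 96 to 428 fell. The causes were not tested. With the replicate number as a block the count was 1, Pgr alone (Nr3c1 adjusted p = 0.062), and over all genes 421 rose and 191 fell, against 467 and 243. Only GDX has a replicate 4, so the block takes that library out of the comparison and leaves 2 residual degrees of freedom. The labels do not say that the number marks a shared litter, batch or day. Deviations of same-numbered libraries from their group means correlated at −0.04, −0.06 and −0.08. Other pairs ranged from −0.12 to 0.13, the highest being GDX replicate 2 with E2 replicate 1. With so few libraries these values cannot settle whether the number pairs the samples. Doubling the smaller tail gave an adjusted p of 0.114 for both separate ratios, and in so small a design these p-values say nothing about stability. With 1 library left out, Pgr over Esr1 differed by 2.38 to 2.47 and Pgrmc1 over Pgr by −2.35 to −2.18. Single libraries moved the other ratios by more than 1.5 times: Esr2 over Esr1 ran from 0.07 without E2 replicate 2 to 0.58 without E2 replicate 1, and was 0.16 without GDX replicate 3, and Nr3c1 over Nr3c2 ran from −0.47 without E2 replicate 1 to −0.13 without E2 replicate 3. The Esr1 to Esr2 ratio per kb moved to 54.9 and 98.0 with other lengths. Low counts of Esr2 and Gper1 limit their precision.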
